A study of Mus musculus with 8 samples.

Results

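The comparison of day 6 with day 4 of induced reprogramming follows mouse embryonic fibroblasts (MEFs) across the middle of an 8-day course. Its members are the 4 bulk RNA-seq libraries of these days, D4 replicates 1 and 2 and D6 replicates 1 and 2, of 8 libraries in all (D2, D4, D6 and D8, 2 each). The cells are 4F2A MEFs from 13.5 dpc embryos labelled male and homozygous, in which doxycycline switches on a transgene that encodes Oct4, Sox2, Klf4 and c-Myc (known from other work to sit in the Col1a1 locus, with the coding parts joined by self-cleaving peptides). All libraries share the same treatment: 2 µg/mL doxycycline from day 0, serum replacement medium with 1000 U/mL LIF, and daily medium changes. The titles call every sample a control. A day 0 sample and a sample without doxycycline are not analysed here, so each change below is a change between days of induction. Nothing in the labels says that a day's replicates were separate cultures or embryos. The p-values therefore measure only how these samples spread, and that spread may be technical. The question, from the title of the series, is how stages of reprogramming differ.

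Reprogramming of fibroblasts by these factors is known to pass through stages. Fibroblast genes, among them those of the extracellular matrix and of TGF-beta signalling, are shut down early, epithelial genes such as E-cadherin come on in a mesenchymal-to-epithelial transition, and the pluripotency network of the cell itself is switched on late and in few cells. Cultures are mixtures during this time. In bulk RNA a lower value can come from fewer cells of a type or from less RNA per cell, and these cannot be told apart.

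The D4 libraries held 20026261 and 19945469 counted reads and the D6 libraries 19510222 and 19548437. Values are CPM, each gene's reads scaled to a library total of 1000000, and 3 reads, the limit that a count of 0 allows, equal 0.15 to 0.154 CPM in these 4 libraries (counting error only). CPM is not divided by gene length, so levels are compared between days and never between genes. The mean distance between a D4 and a D6 library was 46.7 (Euclidean, on log2(CPM + 1) of the tested genes), against 19.6 between the D4 replicates and 19.4 between the D6 replicates. The fibroblast genes Col1a1, Col1a2, Col3a1 and Vim were at 2911 CPM or more in these 4 libraries. Xist, the RNA of the inactive X chromosome, stood at 1011 to 1045 CPM and 4 Y-linked genes at 0.333 CPM or less, which goes against the label male. Pou5f1, Sox2, Klf4 and Myc each have 1 value per library, in which transcripts of the transgene and of the cells' own locus are not separated.

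Of 15358 genes tested (at least 1 CPM in at least 2 of the 8 libraries), 5792 differed between D6 and D4 at an adjusted p under 0.05, which is 37.7%. The test was limma's moderated test on log2(CPM + 1) over all 8 libraries, with Benjamini-Hochberg adjustment over the tested genes. On the deposited scale 3864 genes (25.2%) were higher on day 6 and 1928 (12.6%) were lower. These 2 shares are the background for every count of list members called from D4 to D6 below. Most changes were small, with a median size of 0.37 on the log2 scale among the called genes. Only 300 genes (1.95%) rose by at least 1 on the log2 scale and 37 (0.241%) fell by as much, and the largest falls exceeded the largest rises. The median of all tested genes moved by 0.069. As deposited, 66.7% of the called genes were higher on day 6, but only 48.7% were with median-of-ratios scaling and 47.7% with quantile normalization, so the balance of directions rests on the scaling. The same test called 62.5% of genes from D2 to D4 and 9.11% from D6 to D8. The change from D4 to D6 itself differed from the change from D6 to D8 in 1832 genes (11.9%: 8.39% above it and 3.54% below it). It differed from the change between D2 and D4 in 6748 genes (43.9%: 19.3% above and 24.6% below).

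**Figure D1:**
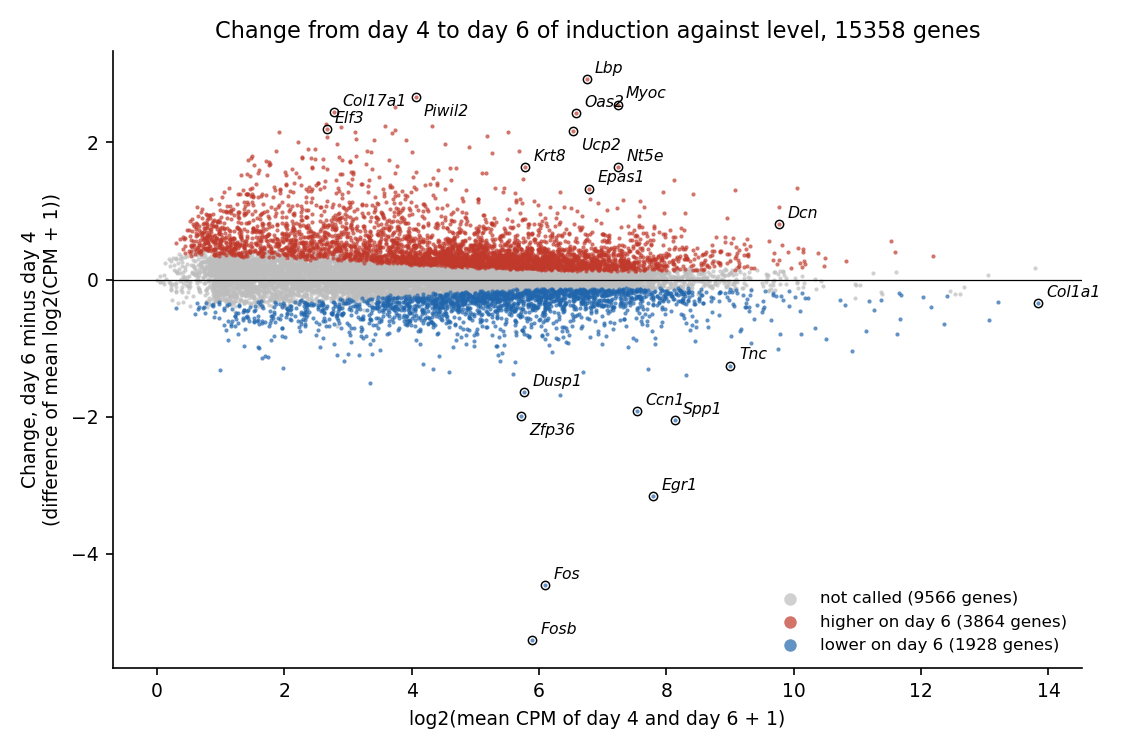
Change from day 4 to day 6 (difference of mean log2(CPM + 1), vertical axis) against the mean level of both days (log2(CPM + 1), horizontal axis), 1 point per tested gene. Fosb, Fos and Egr1 lie below -3, further from 0 than any gene on the side of the rises, where Lbp stands highest at 2.93.

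Immediate-early genes are switched on within minutes of a growth or stress signal, without new protein synthesis, by factors already present in the cell such as SRF, CREB and the ternary complex factors. Their products are transcription factors (the AP-1 subunits of the Fos and Jun families, the Egr zinc fingers, the Nr4a receptors) and proteins that end the signal (the mRNA-destabilizing Zfp36, the MAP kinase phosphatase Dusp1). AP-1 holds open enhancers of the fibroblast state, and its sites are known to lose accessibility during reprogramming. The stretches below are the 150 bases directly before the RefSeq start of 6 immediate-early genes that fell (GRCm38.p6, 5′ to 3′ on the gene's strand). They stand for the AP-1 subunits (Fos, Fosb and Junb), the Egr factors (Egr2) and the proteins that end the signal (Zfp36 and Dusp1). They were chosen after their values were seen and are not the 6 largest falls of the list. In all, 23 of the 29 immediate-early genes had a start in the RefSeq promoter table. Capitals mark matches to the CArG box (the SRF site), TGACGTCA (the cAMP response element), TGANTCA (the AP-1 site), GCGNGGGCG (the Egr site) or TATAAA, searched on both strands. Positions count back from -1, the base before the start.
Fos, chr12:85473740-85473889, + strand: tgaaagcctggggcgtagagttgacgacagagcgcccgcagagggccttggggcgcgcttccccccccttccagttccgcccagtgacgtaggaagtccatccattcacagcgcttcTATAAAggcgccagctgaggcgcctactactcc
Fosb, chr7:19310046-19310195, - strand: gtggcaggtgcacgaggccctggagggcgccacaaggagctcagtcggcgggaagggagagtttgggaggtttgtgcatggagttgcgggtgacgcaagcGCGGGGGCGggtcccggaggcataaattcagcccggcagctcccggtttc
Zfp36, chr7:28379229-28379378, - strand: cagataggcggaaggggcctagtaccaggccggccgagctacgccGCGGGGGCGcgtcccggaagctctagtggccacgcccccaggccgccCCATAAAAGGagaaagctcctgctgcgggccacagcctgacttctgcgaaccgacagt
Egr2, chr10:67537719-67537868, + strand: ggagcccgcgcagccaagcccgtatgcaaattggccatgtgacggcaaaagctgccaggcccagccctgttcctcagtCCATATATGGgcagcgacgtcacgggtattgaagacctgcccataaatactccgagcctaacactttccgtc
Junb, chr8:84978749-84978898, - strand: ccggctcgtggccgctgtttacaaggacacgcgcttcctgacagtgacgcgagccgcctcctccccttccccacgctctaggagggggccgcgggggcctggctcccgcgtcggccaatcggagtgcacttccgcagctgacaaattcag
Dusp1, chr17:26508473-26508622, - strand: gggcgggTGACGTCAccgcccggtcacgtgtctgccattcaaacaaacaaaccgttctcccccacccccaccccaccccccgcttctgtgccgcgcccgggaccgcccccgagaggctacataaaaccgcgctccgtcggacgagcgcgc

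The Fos stretch holds TATAAA at -33 to -28, and that of Fosb the Egr motif at -50 to -42. Zfp36 holds the Egr motif at -105 to -97 and a CArG box at -58 to -49. The Egr2 start shown, 1 of 5 in the table, has a CArG box at -72 to -63, and Dusp1 has TGACGTCA at -143 to -136. The Junb stretch holds none of the letters searched. Over all 32851 promoter stretches of this length, 0.916% hold the CArG box, 1.36% TGACGTCA, 4.24% TGANTCA, 3.81% the Egr motif and 7.57% TATAAA. Among the 23 immediate-early genes, 2 held the CArG box (Egr2 and Zfp36) and 8 the Egr motif (34.8%, against 8.59% of all tested genes with any start in the table). A match is a description of the letters in this window and says nothing of whether a factor was bound.

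Most immediate-early genes fell between day 4 and day 6. Of 29 tested, 18 fell and 1 rose, with a median log2 change of -0.46 beside 0.069 for all tested genes. In 21 of the 29 both D6 libraries lay below both D4 libraries and in 3 above them, against 24.6% and 44.4% of all tested genes. Fosb, an AP-1 subunit (chromosome 7, 19302696 to 19310051, mm10), stood at 105 and 124 CPM in the D4 libraries and 2.26 and 1.79 CPM in the D6 libraries. That is a 56.6-fold lower mean and a change of -5.26 ± 0.13 (SE) on the log2 scale, adjusted p = 3.4e-11. Its paralog Fos (chromosome 12, 85473890 to 85477273) stood at 129 and 131 CPM in D4 and 4.97 and 4.96 CPM in D6, 26.1-fold lower (change -4.45 ± 0.11 (SE), adjusted p = 3.4e-11). Egr1 (chromosome 18, 34859823 to 34864984), a zinc finger factor of growth signals, stood at 394 and 399 CPM in D4 and 45.4 and 41.5 CPM in D6 (change -3.16 ± 0.078 (SE), adjusted p = 3.4e-11). For each of these 3 genes the replicates of a day lay close together and the days far apart.

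The paths into and out of this fall differed between members. From D2 to D4, 18 of the 29 had fallen and 7 had risen (21.7% and 40.9% of all tested genes). The median of that earlier step was -0.69. Fos, Egr1 and Zfp36 were low on day 2, high on day 4 and low again on day 6. Fos read 2.43 and 3.44 CPM in D2, and Zfp36 read 20.6 and 19.9 CPM. Zfp36 itself fell from 84.3 and 82.7 to 21.7 and 18.7 CPM (4.13-fold, adjusted p = 2.4e-09). Junb, an AP-1 subunit, was already at 129.6 and 118 CPM on day 2 and fell from day 4 to day 6 from 150.4 and 145 to 57.2 and 57.6 CPM (change -1.35). Nr4a1, an orphan nuclear receptor, fell from 91.3 and 94.7 to 47.4 and 47.9 CPM (change -0.95), and Ier3, an early gene of apoptosis control, fell from 33.4 and 33.4 to 13.4 and 11.7 CPM (change -1.35) after 56.3 and 53.1 CPM on day 2. In D8 Fos read 4.07 and 4.15 CPM and Egr1 48.8 and 51.6 CPM. From D6 to D8, where 9.11% of all tested genes were called, 3 of the 29 fell (Fosl1, Ier5 and Atf3) and 0 rose. Of these, Atf3 had not fallen from D4 to D6. The change from D4 to D6 was lower than that from D6 to D8 in 13 of the 29 genes by the test of the difference (3.54% of all genes), by -4.23 on the log2 scale for Fos and -3.37 for Egr1.

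Other members were low in level, moved less or did not pass the test. Egr2 fell from 2.85 and 3.86 to 1.03 and 0.87 CPM (change -1.15) and Egr3 from 4.49 and 4.71 to 1.13 and 1.48 CPM (change -1.29). Jun, the central partner of Fos proteins, fell from 82.5 and 82.3 to 62.4 and 56.8 CPM (change -0.46). Jund, the AP-1 subunit of resting cells, was the member that rose, from 112 and 107 to 126 and 129 CPM (change 0.21). Its call was lost without D4 replicate 2, without D6 replicate 2 and after median-of-ratios scaling. Nr4a2 stood at 8.14 and 9.73 CPM in D4 and 9.12 and 8.75 CPM in D6, with overlapping days. Atf3, a stress-induced repressor, stood at 1.25 and 1.4 CPM in D4 and 1.38 and 2 CPM in D6 after 99.1 and 84 CPM on day 2, so its largest fall came before day 4.

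**Figure D2:**
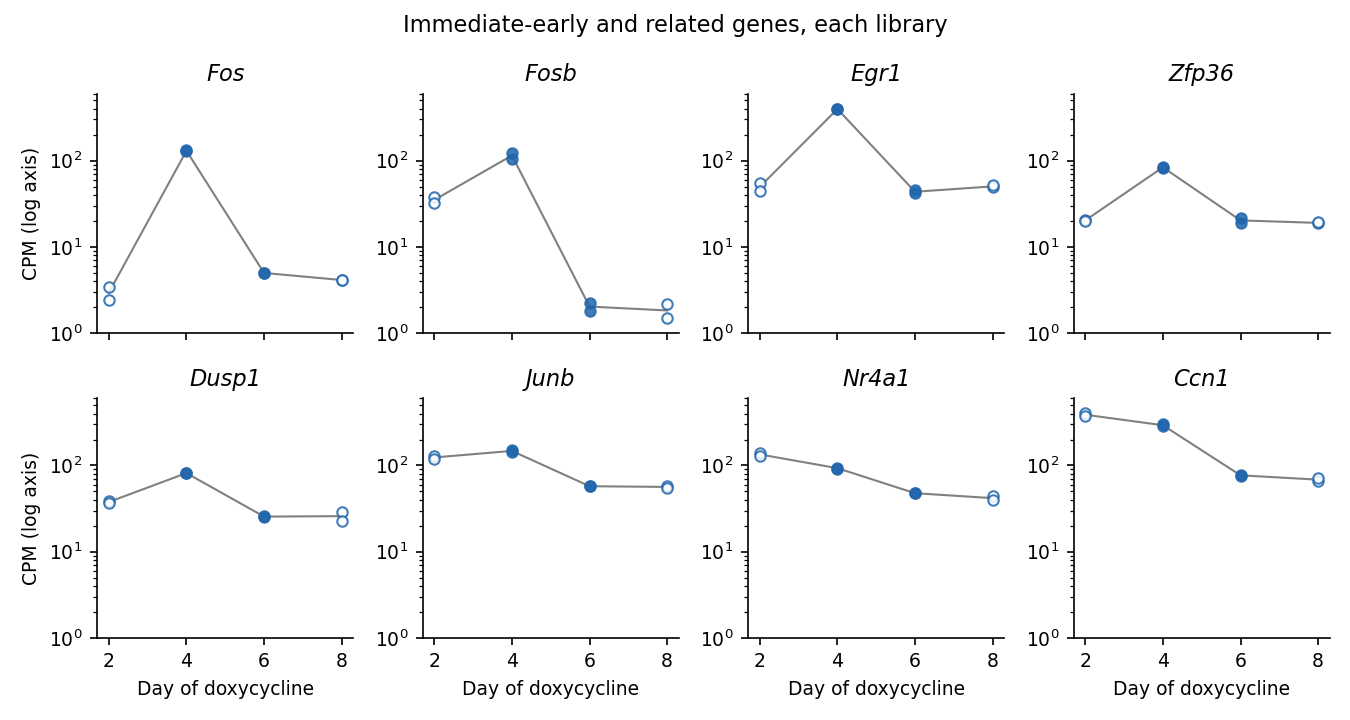
CPM of 8 immediate-early and related genes in each library (points, log axis) by day of doxycycline, with a line through the daily means and filled points for D4 and D6. Fos, Fosb, Egr1, Zfp36, Dusp1 and Junb peak on day 4, whereas Ccn1 and Nr4a1 are highest on day 2.

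Genes that damp MAP kinase signalling fell in part. Such feedback inhibitors are themselves induced by the pathway, as phosphatases of the kinases or as Sprouty and Spred proteins that act upstream. Of 21 tested, 11 fell and 1 rose, with a median of -0.27. Dusp1, the phosphatase that acts on p38, JNK and ERK, fell from 81.7 and 81.4 to 25.1 and 25.9 CPM (change -1.64 ± 0.094 (SE), adjusted p = 1.1e-07). Of 6 Sprouty and Spred genes 5 fell: Spry2 fell by 0.84 on the log2 scale and Spry1 fell from 20.3 and 21.2 to 11 and 13.6 CPM (change -0.72). Errfi1, an inhibitor of the EGF receptor, fell from 24.8 and 23.3 to 15.2 and 13.9 CPM (change -0.69). Dusp6, the phosphatase of ERK, stood at 23.5 and 21 CPM in D4 and 20.8 and 16.8 CPM in D6 (change -0.24, adjusted p = 0.085). Of the 3 ETS factor genes 1 rose, Etv5, whose call was lost without D4 replicate 2 or D6 replicate 2, after median-of-ratios scaling and with no filter on low values.

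The ligands of the EGF receptor family split. Hbegf, the heparin-binding ligand, fell from 9.19 and 10.4 to 3.38 and 4.91 CPM (change -1.08, adjusted p = 5.3e-05). Ereg, epiregulin, fell from 41.6 and 40 to 19.4 and 21.4 CPM (change -0.97). Btc, betacellulin, rose from 8.24 and 8.55 to 13.7 and 15.6 CPM (change 0.73), and Tgfa rose from 1.8 and 2.28 to 4.13 and 4.35 CPM (change 0.79). Of 10 tested ligand genes 5 rose and 2 fell (50% and 20%, against 25.2% and 12.6% of all tested genes). None of the 3 tested receptor genes was called: Egfr stood at 192 and 211 CPM in D4 and 188 and 172 CPM in D6 (change -0.16, adjusted p = 0.074). With quantile normalization 3 members of the family rose.

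TGF-beta signalling maintains the mesenchymal state: latent ligands are released from the matrix, bind type I and type II receptors and act through SMAD proteins. Of 25 tested genes of the pathway, 18 fell and 2 rose, with a median of -0.32. All 5 tested ligand genes fell. Tgfb3 fell from 226 and 251 to 129 and 129 CPM (change -0.88 ± 0.053 (SE), adjusted p = 1.7e-07), Tgfb1 from 33.4 and 34.9 to 25.8 and 23 CPM (change -0.47) and Tgfb2 from 117 and 123 to 90.5 and 87.7 CPM (change -0.43). Of 4 receptor genes 3 fell and 1 rose: the type II receptor gene Tgfbr2 fell from 500 and 502 to 398 and 406 CPM (change -0.32), while Acvr1b, a type I receptor of activins, rose from 33.1 and 33.7 to 41.7 and 45.8 CPM (change 0.38).

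Of 5 genes for proteins that store or activate the ligand 4 fell. Thbs1, thrombospondin, which activates latent TGF-beta, fell from 2564 and 2615 to 1162 and 1348 CPM (change -1.05 ± 0.078 (SE), adjusted p = 7.5e-07). Ltbp1, which tethers the latent ligand to the matrix, fell from 202 and 203 to 118 and 135 CPM (change -0.68). Smad7, an inhibitor induced by the pathway, fell from 18.9 and 19.8 to 11.2 and 12.4 CPM (change -0.67). Among the targets Tagln, a smooth muscle actin-binding protein, stood at 99 and 92 CPM in D4 and 97.4 and 97.8 CPM in D6 (change 0.032, adjusted p = 0.77). The change from D4 to D6 was lower than the change from D6 to D8 in 10 of the 25 genes by the test of the difference (3.54% of all tested genes).

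YAP is a coactivator of TEAD factors that responds to cell tension and density. Of 17 tested target and pathway genes, 10 fell and 2 rose, with a median of -0.20. Ccn1, which encodes a secreted integrin ligand (chromosome 3, 145646976 to 145649981), dropped 3.81-fold, from 284 and 301 to 77.5 and 76.2 CPM (change -1.92 ± 0.056 (SE), adjusted p = 1.5e-10), and its relative Ccn2 fell from 93.7 and 112 to 59.4 and 66.5 CPM (change -0.70). Ccn5, another member of the CCN family, rose from 28.7 and 29.8 to 64.6 and 57.3 CPM (change 1.03). Yap1 itself fell from 217 and 227 to 184 and 193 CPM (change -0.24).

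Most collagen genes fell, and 3 rose. Of 36 tested genes of collagens and their processing enzymes, 26 fell and 3 rose, with a median of -0.33. Among fibrillar chains Col5a3 fell from 289 and 293 to 161 and 159 CPM (change -0.86 ± 0.044 (SE), adjusted p = 4.4e-08), and Col5a1, a chain of type V collagen that nucleates fibrils, fell from 3862 and 4095 to 2143 and 2459.8 CPM (change -0.79). Col1a2, a chain of type I collagen, fell from 10031 and 10465 to 6284 and 7389 CPM (change -0.59). Its partner Col1a1 stood at 14714 and 18029 CPM in D4 and 12002 and 13644 CPM in D6 (change -0.35, adjusted p = 0.025). Its call was lost without D4 replicate 2 (adjusted p = 0.18), without D6 replicate 1 (0.19) and without either D2 library. Col12a1, which decorates fibrils, fell from 1822 and 1944 to 961 and 1102 CPM (change -0.87), and Col6a3, a chain of microfibrillar type VI collagen, fell from 1381 and 1418 to 738 and 881 CPM (change -0.79). The cartilage collagen gene Col2a1 rose from 7.89 and 9.12 to 19.8 and 17.5 CPM (change 1.05) and Col8a2, a chain of type VIII collagen, rose from 6.29 and 8.32 to 18.9 and 17.8 CPM (change 1.23). Of 12 tested processing enzymes 8 fell, among them the lysyl oxidase gene Loxl3, from 177 and 172 to 113 and 111 CPM (change -0.63), whereas Lox stood at 1946 and 2178 CPM in D4 and 1933 and 1965 CPM in D6 (change -0.079). From D2 to D4, 16 of the 36 genes had risen and 9 had fallen (40.9% and 21.7% of all tested genes). The later change lay below the earlier one in 23 of the 36 by the test of the difference (24.6% of all tested genes).

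Of 20 tested genes of other matrix glycoproteins 15 fell and 2 rose, and of 11 proteoglycan genes 4 fell and 3 rose. The median of both together was -0.32. Spp1, osteopontin (chromosome 5, 104435118 to 104441050), fell from 524 and 375 to 86.6 and 130.4 CPM, 4.14-fold (change -2.05 ± 0.16 (SE), adjusted p = 9.3e-07), although its replicates differed within each day. Fbn2, the embryonic fibrillin, fell from 422 and 501 to 184 and 164 CPM (change -1.40), and Fn1, fibronectin, from 5909 and 6886 to 3709.6 and 4423 CPM (change -0.66). Small leucine-rich proteoglycans went both ways. Aspn, asporin, fell from 223 and 224 to 105 and 120.4 CPM (change -0.98), and Dcn, decorin, which binds TGF-beta and collagen fibrils, rose from 647 and 619.6 to 1176 and 1053 CPM (change 0.81, adjusted p = 5.9e-07). Prelp rose from 904 and 909 to 1294 and 1200 CPM (change 0.46). The microfibril genes Mfap4 and Mfap5 rose by 0.78 and 0.65. Cthrc1, a secreted protein of matrix-producing fibroblasts outside these lists and among the largest falls of all genes, fell from 133 and 111 to 33.5 and 41.1 CPM (change -1.69). Of the 31 glycoprotein and proteoglycan genes, 16 had risen from D2 to D4 and 7 had fallen (40.9% and 21.7% of all tested genes). The later change lay below the earlier one in 19 of the 31 by the test of the difference (24.6% of all tested genes).

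Of 23 tested genes of proteases and their inhibitors, 15 fell and 1 rose, with a median of -0.34. Mmp9, a gelatinase, fell from 8.44 and 8.92 to 3.33 and 3.73 CPM (change -1.10, adjusted p = 0.0017, a call lost with no filter on low values), and Mmp14, a membrane protease that activates other matrix proteases, fell from 777 and 811 to 519 and 547 CPM (change -0.58). The plasminogen activator genes Plat and Plau fell by 0.84 and 0.79 on the log2 scale, and Adamts4, an aggrecanase, fell from 52.4 and 54.6 to 30.7 and 31.9 CPM (change -0.75). Mmp2 stood at 892 and 904 CPM in D4 and 880 and 845 CPM in D6 (change -0.058) and the inhibitor Timp3 at 1236 and 1339.9 CPM in D4 and 1312 and 1276 CPM in D6 (change 0.0073), both uncalled. From D2 to D4, 16 of the 23 genes had risen and 6 had fallen (40.9% and 21.7% of all tested genes). The later change lay below the earlier one in 18 of the 23 by the test of the difference (24.6% of all tested genes).

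Integrins are the receptors for these matrix proteins. Of 17 tested subunit genes, 9 fell and 4 rose. The fibronectin receptor subunits Itga4 and Itga5 fell, Itga4 from 55.7 and 50.3 to 26.5 and 26.3 CPM (change -0.98) and Itga5 from 225 and 237 to 152 and 164 CPM (change -0.54). Of the 4 that rose, 3 are known from epithelia: Itga3, a laminin receptor subunit, from 4.84 and 5.31 to 10.3 and 8.39 CPM (change 0.76), Itga2, a collagen receptor subunit, from 1.3 and 1.65 to 3.13 and 3.07 CPM (change 0.73), and Itgb4, the subunit of hemidesmosomes, from 778 and 794 to 911 and 919.7 CPM (change 0.22). Itgb7, known from lymphocytes, rose from 4.14 and 4.16 to 10.5 and 9.77 CPM (change 1.11). The laminin receptor subunit gene Itga6 was not called. Itgb8 fell, a call lost without D6 replicate 2 and with no filter on low values.

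Contractile genes had mostly fallen before day 4. Of 23 tested genes of contraction and actin regulation, 22 fell from D2 to D4 (21.7% of all tested genes), with a median of -1.56, and 9 fell and 1 rose from D4 to D6, with a median of -0.14. The later change lay above the earlier one in 20 of the 23 by the test of the difference (19.3% of all tested genes). Vcl, vinculin of focal adhesions, fell from 219.6 and 235 to 119 and 133 CPM (change -0.85, adjusted p = 4.4e-07), and Tpm1, tropomyosin, from 702 and 730.2 to 422 and 430.3 CPM (change -0.75). Acta2, smooth muscle actin, stood at 517 and 507 CPM in D4 and 534 and 625 CPM in D6 (change 0.17, adjusted p = 0.12).

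Of 22 tested mesenchymal transcription factors 9 fell and 3 rose (40.9% and 13.6%, against 12.6% and 25.2% of all tested genes), with a median of -0.15. Snai2, a repressor of E-cadherin, fell from 29.3 and 30.3 to 23.1 and 20 CPM (change -0.46), and Prrx1, a homeobox factor of limb mesenchyme, fell from 669 and 684 to 556 and 557 CPM (change -0.28). Twist1 stood at 109.7 and 111 CPM in D4 and 109 and 98.6 CPM in D6 (change -0.089) and Zeb1, a repressor of epithelial genes, fell from 178 and 176 to 160.4 and 149 CPM (change -0.20), a call lost without D6 replicate 2. Of the 8 tested factors of epithelial-to-mesenchymal transition in this list, 3 fell and 1 rose. The 1 that rose was Zeb2, a call lost after median-of-ratios scaling. Of 15 tested fibroblast surface markers 5 rose and 4 fell. Pdgfrb, the PDGF receptor of mural and mesenchymal cells, fell from 187 and 197 to 128 and 129 CPM (change -0.57), and Thy1, the marker used to follow loss of fibroblast identity, stood at 422 and 365 CPM in D4 and 368 and 332 CPM in D6 (change -0.17, adjusted p = 0.073). Nt5e, the ectonucleotidase CD73, rose from 75.3 and 69.3 to 221 and 234 CPM, 3.15-fold (change 1.64 ± 0.057 (SE), adjusted p = 1.3e-09). Cd34 rose from 403 and 379 to 581 and 564 CPM (change 0.55) and Eng, a TGF-beta coreceptor, from 139 and 144 to 225 and 216 CPM (change 0.64). Ly6c1 rose by 1.15 and Ly6a by 0.56. Members of the Ly6 family are near-identical in parts, and reads may be shared between them.

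**Figure D3:**
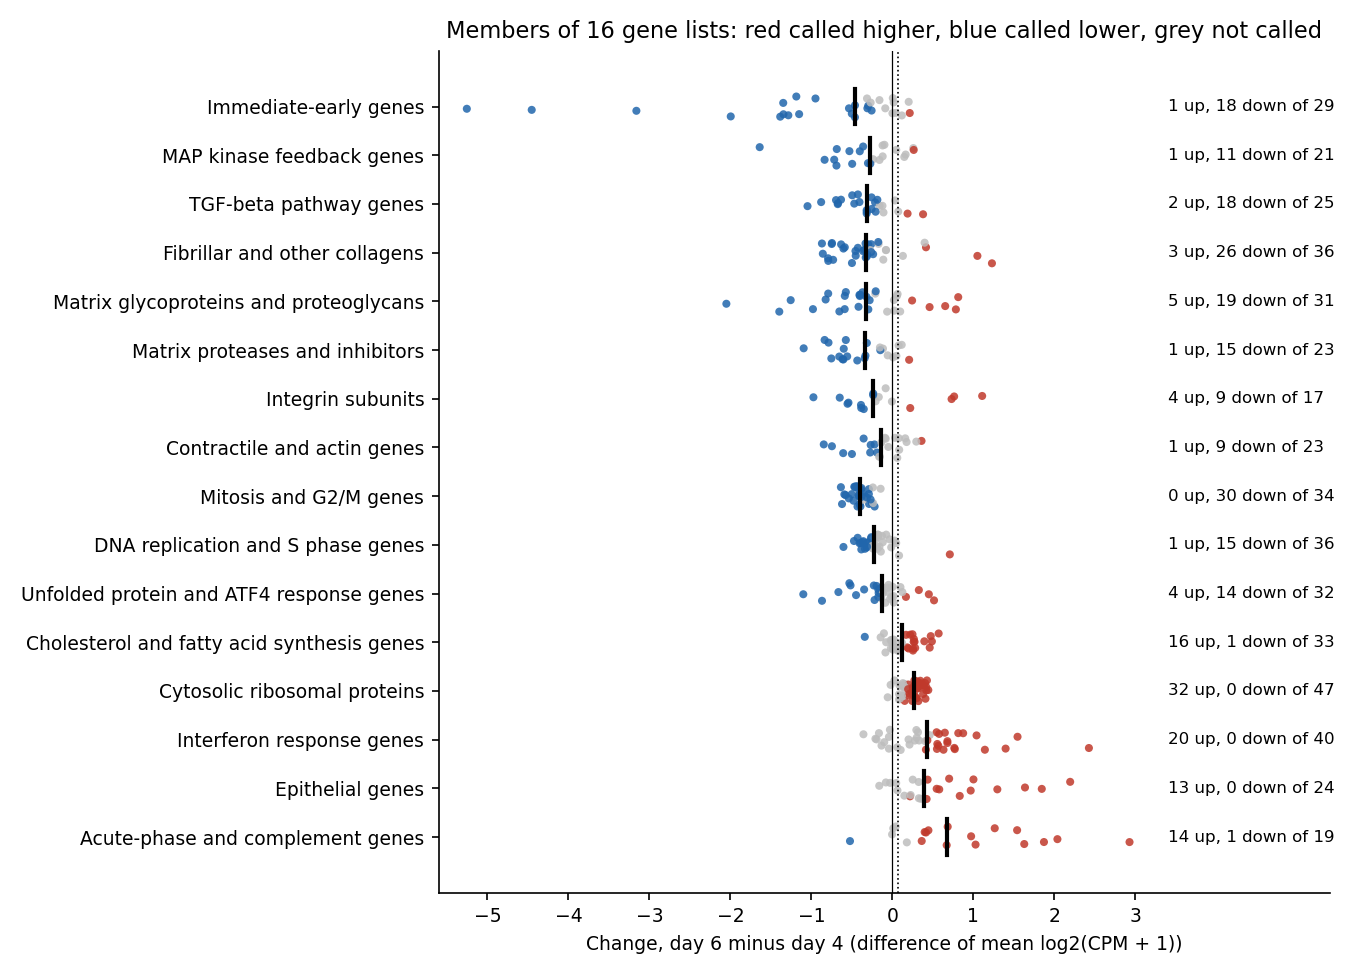
Change from day 4 to day 6 (log2 scale) of the tested members of 16 gene lists, 1 point per gene, with a black bar at each list's median and a dotted line at the median of all tested genes, 0.069. The medians of the 11 upper lists lie below the dotted line and those of the 5 lower lists above it, while most lists hold members on both sides.

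Other signalling pathways moved gene by gene. Among BMP genes 7 of 24 tested fell and 2 rose (11 and 1 with quantile normalization): the ligand Bmp4 fell from 40.2 and 39 to 22.1 and 25 CPM (change -0.73), the secreted antagonist Grem1 fell from 126 and 98.9 to 71.7 and 67.5 CPM (change -0.68), and Id4, a target that blocks helix-loop-helix factors, rose from 25 and 24.6 to 47.4 and 42.5 CPM (change 0.83). Among Wnt genes 8 of 30 rose and 6 fell, shares of 26.7% and 20% that lie near those of all tested genes for rises and above them for falls (4 rose without D6 replicate 1 and with no filter on low values). The ligand genes Wnt4 and Wnt2 rose by 0.72 and 0.66, and the secreted antagonist gene Dkk3 fell from 171 and 166 to 98.6 and 91.2 CPM (change -0.82). Axin2, a general Wnt target, stood at 16.6 and 19.8 CPM in D4 and 17.9 and 16.5 CPM in D6 (change -0.068, adjusted p = 0.59). In the Notch pathway 4 of 10 fell and 3 rose (40% and 30%, against 12.6% and 25.2% of all tested genes). The target Hes1, a repressor, fell from 102 and 95.7 to 45.8 and 48.3 CPM (change -1.06 ± 0.058 (SE), adjusted p = 8e-08). The receptor gene Notch3 fell from 74 and 88.7 to 55.6 and 51.9 CPM (change -0.58) and the ligand gene Jag2 rose from 8.74 and 10.3 to 15.3 and 14 CPM (change 0.58).

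Insulin-like growth factor genes moved in opposite directions. Igf2, the fetal growth factor, fell from 1496 and 1709 to 991 and 968 CPM (change -0.71), and Igf2r, the receptor that clears it, fell from 814 and 879 to 434 and 452 CPM (change -0.93 ± 0.067 (SE), adjusted p = 5.9e-07). Igf1 rose from 39.7 and 53.8 to 103 and 72.9 CPM (change 0.89), with a gap between the D6 replicates, and Igfbp6, a binding protein that prefers IGF2, rose from 183 and 152 to 349.8 and 306 CPM (change 0.97). Fgf1 rose from 3.6 and 4.31 to 7.84 and 7.11 CPM (change 0.78). LIF, which is in the medium, acts through STAT3. Of 16 tested genes of this axis, 8 fell and 1 rose (4 fell without D6 replicate 2). Socs3, the feedback inhibitor that STAT3 induces, fell from 82.7 and 75.3 to 60.2 and 62 CPM (change -0.36).

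Epithelial genes rose or did not pass the test. Of 37 listed, 24 passed the filter on low values, and of these 13 rose and 0 fell (11 were not called), with a median of 0.39. A gene below 1 CPM in D4 that passed the filter through both D6 libraries had to be higher on day 6. This holds here and in the lists of low genes that follow, so these counts are a description. Elf3, an ETS factor of epithelia (chromosome 1, 135253575 to 135258568), rose from 1.02 and 1.53 to 8.51 and 10.3 CPM (change 2.19 ± 0.21 (SE), adjusted p = 4.7e-06), and its relative Ehf rose from 16.3 and 14.9 to 67.6 and 50.7 CPM (change 1.84). Krt8, a keratin of simple epithelia, rose from 30.2 and 21.4 to 72.5 and 91.1 CPM (change 1.64, adjusted p = 2.6e-06). Cdh1, E-cadherin, rose from 17.9 and 19.3 to 35 and 39.5 CPM, 2.01-fold (change 0.97 ± 0.12 (SE), adjusted p = 4.6e-05). Among the tight junction genes, Cldn3 rose from 2.25 and 1.93 to 5.89 and 7.32 CPM (change 1.30) and Ocln, occludin, from 0.35 and 0.251 to 0.871 and 1.38 CPM (change 0.70). Dsp, desmoplakin, rose from 42.4 and 55.9 to 73.9 and 69.3 CPM (change 0.55), and Spint2, a protease inhibitor of epithelial surfaces, from 11.8 and 11.6 to 24.6 and 24.3 CPM (change 1.00).

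Not every epithelial gene took part. Krt19 stood at 6.34 and 4.71 CPM in D4 and 3.79 and 5.99 CPM in D6 and the splicing regulator Esrp2 at 2.62 and 3.07 CPM in D4 and 2.79 and 3.24 CPM in D6, both uncalled. Epcam, a surface marker of epithelial and pluripotent cells, read 0.0499 and 0.0501 CPM in D4 and 0.308 and 0.665 CPM in D6, below the filter. Krt18, the usual partner of Krt8, read at most 0.256 CPM. Among the 15 largest rises of all genes were Col17a1, the transmembrane collagen of hemidesmosomes, from 1.25 and 1 to 11.4 and 9.77 CPM (change 2.44), the desmosomal cadherin gene Dsg2, from 1.77 and 1.48 to 10.8 and 11.7 CPM (change 2.22), and Exph5, a vesicle transport protein of keratinocytes, from 3.5 and 4.12 to 23.1 and 18.6 CPM (change 2.18). Of 11 tested markers of stratified epithelium, 5 rose and 0 fell. Lgals7, galectin-7, rose from 18.8 and 13 to 68.1 and 78.1 CPM (change 2.15) and Sprr1a, a cornified envelope precursor, from 3.89 and 3.91 to 9.53 and 8.85 CPM (change 1.05), while Krt14, a basal keratin, stood at 34.9 and 23.3 CPM in D4 and 25.4 and 30 CPM in D6.

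The 4 factor genes rose, transgene and own copies together. Pou5f1, which encodes Oct4, rose from 156 and 170 to 276 and 285 CPM (change 0.78 ± 0.051 (SE), adjusted p = 3.2e-07), and Sox2 rose from 141 and 148 to 226 and 222 CPM (change 0.63). Klf4 rose from 406 and 435 to 608 and 611 CPM (change 0.54) and Myc from 478 and 500.2 to 701 and 699 CPM (change 0.52). For each of them the change from D4 to D6 exceeded the change from D6 to D8 by the test of the difference (8.39% of all tested genes), by 0.77 for Pou5f1 on the log2 scale.

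Genes of the pluripotency network were mostly near the floor. Of 36 listed, 14 passed the filter, and 5 of these rose and 2 fell (35.7% and 14.3%, against 25.2% and 12.6% of all tested genes). Gdf3, a TGF-beta family ligand of pluripotent cells, rose from 1.5 and 1 to 5.84 and 3.99 CPM (change 1.38), Tfcp2l1, a factor of naive pluripotency, from 0.649 and 1.05 to 3.82 and 2.99 CPM (change 1.25), and L1td1, an RNA-binding protein, from 47.2 and 43.9 to 90.5 and 102 CPM (change 1.06). Tdh, a threonine dehydrogenase of stem cells, rose from 3.45 and 3.31 to 6.95 and 6.62 CPM (change 0.83). Klf2, which is both a naive factor and an early-response gene, fell from 8.79 and 10.6 to 4 and 3.38 CPM (change -1.19). Nanog read 0.302 and 0.317 CPM in D4 and 0.546 and 0.469 CPM in D6, and Zfp42 at most 0.231 CPM, both below the filter. Of 33 germline and piRNA genes 12 passed the filter, and 4 rose and 0 fell (2 rose without D6 replicate 2). The share that rose was 33.3%, beside 25.2% of all tested genes. Piwil2, which binds piRNAs in germ cells (chromosome 14, 70372477 to 70429383), rose from 3.35 and 3.76 to 29.3 and 26.4 CPM (change 2.66 ± 0.12 (SE), adjusted p = 1.5e-08), and Tdrd1, its Tudor partner, from 1.75 and 1.86 to 4.61 and 4.55 CPM (change 1.00).

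Acute-phase and complement genes rose together. Of 22 listed, 19 were tested, and 14 rose and 1 fell, with a median of 0.67. In the step before, from D2 to D4, 16 of the 19 had risen (40.9% of all tested genes), with a median of 1.72. By the test of the difference the later change lay below the earlier one in 13 of the 19 (24.6% of all tested genes). The summed level of the list went from 1041 and 1084 CPM in D4 to 1833 and 1760 CPM in D6. Lbp, whose product carries lipopolysaccharide to CD14 (chromosome 2, 158306493 to 158332852), went up 7.89-fold, from 25 and 23 to 198 and 181 CPM (change 2.93 ± 0.065 (SE), adjusted p = 1.5e-11). Saa3, a serum amyloid protein, rose from 20.2 and 22 to 88.7 and 71.8 CPM (change 1.87), Lcn2, an iron-sequestering lipocalin, from 2.55 and 2.96 to 11.2 and 8.75 CPM (change 1.54), and Hp, haptoglobin, from 12 and 10.9 to 23.4 and 25.4 CPM (change 1.03). Of 10 tested complement genes 7 rose and 0 fell: C3 rose from 24 and 32.1 to 77.6 and 59.7 CPM (change 1.26), the alternative pathway factor Cfb from 10.3 and 11.5 to 32.8 and 39.1 CPM (change 1.63) and the inhibitor Serping1 from 219 and 201 to 424 and 402 CPM (change 0.97). C4b rose from 5.42 and 4.29 to 20.3 and 25.9 CPM (change 2.04), and its near-identical copy C4a may share its reads. Ptx3, a long pentraxin, was the member that fell, from 70.5 and 83.3 to 55.4 and 50.6 CPM (change -0.52). C1qa and C1qb, complement genes of macrophages, stood at 10.4 and 9.12 CPM in D4 and 9.02 and 10.4 CPM in D6 and at 9.09 and 8.52 CPM in D4 and 8.05 and 9.77 CPM in D6.

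Macrophage markers were present. Of 11 tested macrophage and haematopoietic markers, 2 rose and 1 fell, and their sum was 112 and 118.7 CPM in D4 and 119 and 130.8 CPM in D6. In D6 replicate 2, 9 of the 11 were higher than in D6 replicate 1, with a median difference of 0.29 on the log2 scale where that of all tested genes was 0.00. Most interferon response genes were also higher in that library than in D6 replicate 1. Lyz2, lysozyme, stood at 48.9 and 52.4 CPM in D4 and 48.2 and 51.5 CPM in D6 and Ptprc, the pan-leukocyte marker, at 2.15 and 2.61 CPM in D4 and 2.2 and 3.38 CPM in D6. Their part in the acute-phase and interferon results was not tested.

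Chemokine and cytokine genes went both ways, with 7 of 23 tested lower and 5 higher (3 higher without D6 replicate 1). The shares were 30.4% lower and 21.7% higher, beside 12.6% and 25.2% of all tested genes. The 4 chemokine genes that fell were Ccl2 from 115 and 113 to 56.5 and 62.8 CPM (change -0.92), its neighbour Ccl7 from 163 and 168 to 84 and 88.1 CPM (change -0.94), the neutrophil attractant Cxcl1 from 86.2 and 79.8 to 47.1 and 47 CPM (change -0.81) and Ccl20 from 3.5 and 3.41 to 1.13 and 0.972 CPM (change -1.12). Il34, a ligand of the macrophage receptor CSF1R, rose from 6.62 and 6.79 to 10.3 and 10 CPM (change 0.53). Il6 stood at 1.2 and 1.05 CPM in D4 and 0.82 and 0.818 CPM in D6 and Cxcl5 at 494 and 519.6 CPM in D4 and 471 and 468 CPM in D6, both uncalled.

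Interferon response genes rose in part, and their level differed between replicates of a day. Interferons induce these genes, which encode antiviral effectors, RNA sensors and the antigen presentation machinery. Of 40 tested, 20 rose and 0 fell, with a median of 0.42. In the step before, from D2 to D4, 36 of the 40 had risen (40.9% of all tested genes), with a median of 2.11. By the test of the difference the later change lay below the earlier one in 31 of the 40 (24.6% of all tested genes). The summed level of the list was 2482 and 2105 CPM in D4 and 2482 and 3678 CPM in D6, so that D6 replicate 1 did not exceed D4 replicate 1. In D6 replicate 2, 35 of the 40 genes were higher than in D6 replicate 1, with a median difference of 0.38 where that of all tested genes was 0.00. In D4 replicate 2, 35 of 40 were lower than in D4 replicate 1, with a median of -0.28. Without D6 replicate 2, 12 genes rose, without D4 replicate 2, 11, and with no filter on low values 7.

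The 2'-5' oligoadenylate synthetases, which sense double-stranded RNA, showed the largest rises of the list. Oas2 (chromosome 5, 120730333 to 120749853) rose from 32.3 and 22.9 to 104 and 218 CPM (change 2.43 ± 0.24 (SE), adjusted p = 6.8e-06), with both D6 libraries above both D4 libraries. Oas3 rose from 2.48 and 2.5 to 5.24 and 15.6 CPM (change 1.54) and Oas1a from 4.49 and 3.04 to 6.84 and 18.7 CPM (change 1.40). The Oas genes are related copies in 1 cluster, and reads may be split between them. The calls of Oas1a, Oas3, Ifih1 and Irf7 were lost with no filter on low values. Zbp1, a sensor of Z-form nucleic acid, rose from 40.3 and 32 to 63.5 and 102 CPM (change 1.14) and Ifih1, the RNA sensor MDA5, from 37.4 and 34.8 to 47.7 and 59.1 CPM (change 0.55). Tapbp, tapasin of the peptide loading complex, rose from 108 and 105 to 142 and 173 CPM (change 0.55), with the days apart. Irf7, the master factor of the response, stood at 47.9 and 38.7 CPM in D4 and 51.7 and 112 CPM in D6 (change 0.81, adjusted p = 0.017) and lost its call without D6 replicate 2 (adjusted p = 0.13) or without D4 replicate 2 (0.11). Ifit1 stood at 165 and 145 CPM in D4 and 126 and 165 CPM in D6 and Isg15 at 43.4 and 32 CPM in D4 and 35.2 and 75.7 CPM in D6, neither of them called, with overlapping libraries.

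**Figure D4:**
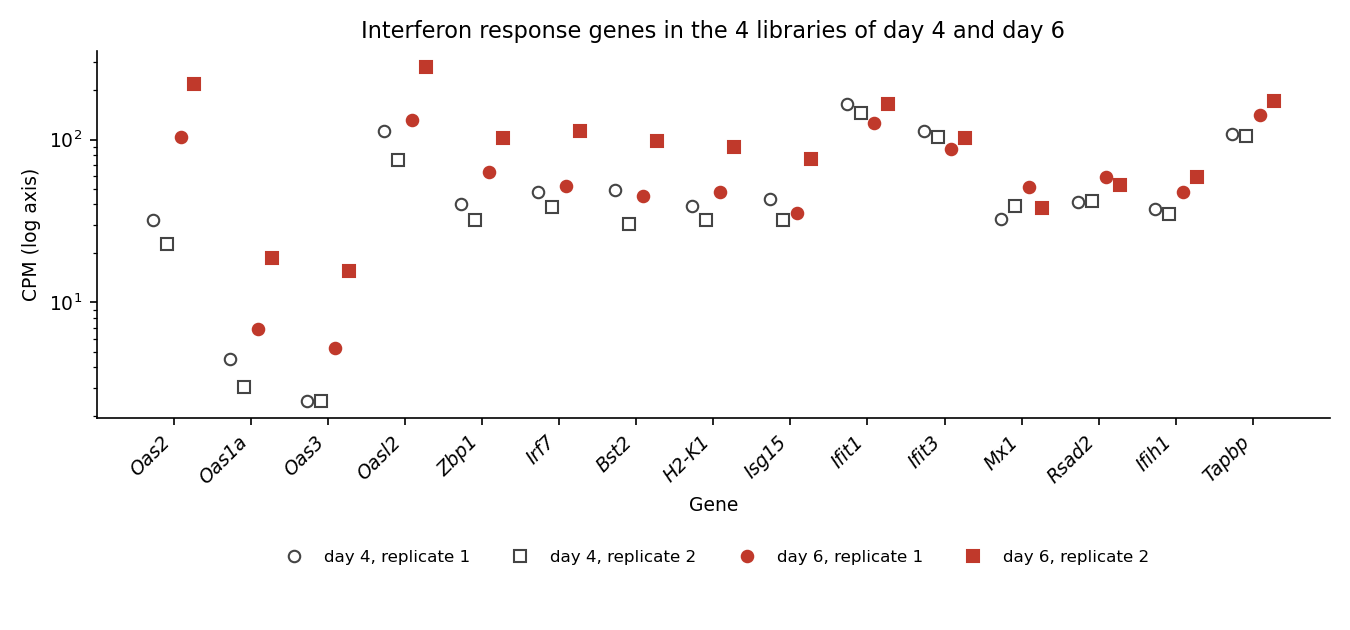
CPM (log axis) of 15 interferon response genes in the 4 libraries, open symbols for D4 and filled for D6, circles for replicate 1 and squares for replicate 2. Oas2, Oas3, Zbp1 and Tapbp have both D6 libraries above both D4 libraries, while for Ifit1 and Isg15 D6 replicate 1 lies among the D4 libraries or below them.

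Genes of mitosis fell by small amounts. Of 34 tested genes of mitosis and G2/M, 30 fell and 0 rose, with a median of -0.40 and a range of -0.64 to -0.15. In the step before, from D2 to D4, 30 of the 34 had risen (40.9% of all tested genes). By the test of the difference the later change lay below the earlier one in 34 of 34 (24.6% of all tested genes). Bub1, a checkpoint kinase, fell from 22.2 and 24.9 to 12.6 and 17.3 CPM (change -0.64, adjusted p = 0.0013), Foxm1, a factor of G2/M transcription, from 47.8 and 59 to 32 and 36.4 CPM (change -0.62), and Aurkb, Aurora B kinase, from 24.3 and 26.6 to 16.7 and 16.6 CPM (change -0.58). Mki67, the proliferation marker, stood at 186 and 249 CPM in D4 and 187 and 202 CPM in D6 (change -0.15, adjusted p = 0.4). In D6, 32 of the 34 genes were higher in replicate 2 than in replicate 1, with a median difference of 0.14. Without D6 replicate 1, 18 of the genes fell.

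Of 36 tested S phase genes, 15 fell and 1 rose, with a median of -0.22. The member that rose was E2f2, from 6.34 and 5.41 to 8.66 and 12 CPM, a call lost with no filter on low values. Without D6 replicate 1, 5 fell, and with quantile normalization 25. Rrm2, the ribonucleotide reductase subunit of S phase, fell from 104 and 111 to 67.6 and 73.2 CPM (change -0.60), and Mcm3, of the replicative helicase, from 52.4 and 54.1 to 36.4 and 42.5 CPM (change -0.43). Pcna stood at 75.6 and 77.1 CPM in D4 and 68.8 and 80.7 CPM in D6 (change -0.035). The D-type cyclin genes Ccnd1 and Ccnd3 rose, by 0.31 and 0.34, and so did Ccnd2, by 0.19. The call of Ccnd2 was lost after median-of-ratios scaling and without D4 replicate 2, D6 replicate 1 or either D2 library, with the D4 and D6 libraries alone and with no filter on low values. Cdkn1a, the p53-induced inhibitor p21, stood at 837 and 834 CPM in D4 and 876 and 893 CPM in D6 (change 0.082, adjusted p = 0.19), while Mdm2, the ligase that degrades p53 and is induced by it, fell from 404 and 393 to 274 and 277 CPM (change -0.53).

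Genes of cytosolic ribosomal proteins were higher on day 6 on the deposited scale, by small amounts. Of 47 tested, 32 rose and 0 fell, with a median of 0.27. Rplp0 rose from 1032 and 889.9 to 1336 and 1271 CPM (change 0.44, adjusted p = 0.00068) and Rps14 from 432 and 352 to 515 and 527 CPM (change 0.42). The D4 replicates differed for this list: all 47 genes were lower in D4 replicate 2 than in replicate 1, with a median of -0.22 where that of all tested genes was -0.02. The summed level was 18770 and 16200 CPM in D4 and 20460 and 20620 CPM in D6. Without D4 replicate 2, 16 genes rose, with no filter on low values 13, and after median-of-ratios scaling 23. Ribosomal protein genes have many near-identical pseudogenes, and reads shared with them are uncertain.

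Among metabolic genes, Epas1, the hypoxia-inducible factor HIF-2alpha (chromosome 17, 86753700 to 86833410), rose from 59.2 and 64.6 to 169.8 and 144 CPM (change 1.33 ± 0.071 (SE), adjusted p = 5.7e-08), and Hif1a fell from 421 and 447 to 272 and 265 CPM (change -0.69, adjusted p = 4.2e-07). Targets of these factors differed: Egln3, a prolyl hydroxylase, rose from 20.1 and 18.8 to 35.9 and 53.3 CPM (change 1.13) and Ndrg1 from 14.6 and 13.8 to 25.9 and 26 CPM (change 0.82), whereas Adm, adrenomedullin, fell from 8.34 and 8.39 to 6.2 and 5.93 CPM (change -0.41). Of 33 tested glycolysis and hypoxia genes, 10 rose and 5 fell (30.3% and 15.2%, near the 25.2% and 12.6% of all tested genes; 3 fell without D4 replicate 1), and Ldha stood at 286 and 255 CPM in D4 and 247 and 269 CPM in D6. Of 33 tested genes of cholesterol and fatty acid synthesis, 16 rose and 1 fell on the deposited scale, and 10 rose and 4 fell after median-of-ratios scaling (10 rose without D6 replicate 1). Scd1, a fatty acid desaturase, rose from 253 and 253 to 347 and 356 CPM (change 0.47).

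Genes of the ATF4 response, which supplies amino acids under stress, fell in part: of 16 tested 11 fell and 2 rose (68.8% and 12.5%, against 12.6% and 25.2% of all tested genes). Of 16 genes of the unfolded protein response 3 fell and 2 rose, and the difference between these lists was not tested. Trib3, a pseudokinase, fell from 13 and 9.58 to 3.64 and 5.93 CPM (change -1.10), Slc7a5, a leucine transporter, from 83.9 and 90.1 to 43.4 and 51.2 CPM (change -0.87 ± 0.074 (SE), adjusted p = 2.2e-06), and Mthfd2, a mitochondrial folate enzyme, from 29.7 and 31.6 to 18.2 and 19.6 CPM (change -0.67). Atf4 itself fell from 161 and 148 to 111 and 114 CPM (change -0.45). Without D4 replicate 1 or without D6 replicate 1, 9 genes of both lists together fell, in place of 14.

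Chromatin genes changed singly. Of 36 tested Polycomb and histone modifier genes, 13 rose and 3 fell on the deposited scale, and 8 rose and 4 fell after median-of-ratios scaling (8 rose without D6 replicate 1). On the deposited scale the shares were 36.1% and 8.33%, beside 25.2% and 12.6% of all tested genes. Pcgf5, a subunit of variant Polycomb complexes, rose from 9.69 and 10.2 to 20.8 and 19.6 CPM (change 0.95 ± 0.085 (SE), adjusted p = 3.3e-06), and Ezh1, the methyltransferase of resting cells, from 39.5 and 41.7 to 56.8 and 54.6 CPM (change 0.45). Ezh2 stood at 29.5 and 33.9 CPM in D4 and 27.4 and 30.6 CPM in D6 (change -0.12). Kdm3a, a demethylase of H3K9, rose from 70.3 and 69.8 to 96.3 and 92.6 CPM (change 0.42). Of 17 tested DNA methylation and demethylation genes, 4 rose and 1 fell (23.5% and 5.88%, beside 25.2% and 12.6% of all tested genes). Tet2, a dioxygenase of methylcytosine, rose from 70.3 and 74.5 to 129 and 119.9 CPM (change 0.77 ± 0.060 (SE), adjusted p = 1e-06), whereas Tet1 stood at 7.74 and 9.48 CPM in D4 and 10.6 and 9.77 CPM in D6 and Tet3 at 66.9 and 71.8 CPM in D4 and 70.2 and 69.8 CPM in D6. Of 30 tested remodelers 5 rose and 3 fell (16.7% and 10%, below the 25.2% and 12.6% of all tested genes). Among those that rose, Smarca2, the BRM ATPase, went from 154 and 173 to 236 and 215 CPM (change 0.46). Chd7 went from 11.2 and 10.5 to 17.6 and 17.4 CPM (change 0.65).

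Imprinted genes, of which 20 were tested, counted 7 higher and 6 lower (35% and 30%, against 25.2% and 12.6% of all tested genes). Peg10, derived from a retrotransposon, rose from 14 and 17.6 to 32.2 and 32 CPM (change 0.99), Peg3 rose from 181 and 216 to 315 and 295 CPM (change 0.63), and the long noncoding RNA gene Meg3 fell from 824 and 857 to 659 and 585 CPM (change -0.44). The expressed allele cannot be read from these values.

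Hox genes mark position along the body and limb axes, and in each cluster the paralog number runs from 3' to 5'. Of 32 tested, 11 rose and 5 fell, the rises and the falls at different paralog numbers. The bands used here were chosen after their values were seen. In paralog groups 3 to 6, 9 of 12 rose and 0 fell, with a median of 0.58. In groups 11 to 13, 5 of 5 fell, with a median of -0.40, and in groups 7 to 10, 2 of 12 rose and 0 fell. Hoxb6 rose from 6.69 and 7.87 to 14 and 13 CPM (change 0.81 ± 0.10 (SE), adjusted p = 4.9e-05) and Hoxd4 from 2.84 and 2.97 to 6.09 and 5.13 CPM (change 0.76). Hoxd12 fell from 10.9 and 11.7 to 7.18 and 6.65 CPM (change -0.63, adjusted p = 0.00022), and Hoxa13 and Hoxd13, the genes of the distal limb, fell by 0.48 and 0.37. The calls of Hoxa11 and Hoxd11 were lost without D6 replicate 1 (adjusted p = 0.099 and 0.11). Clusters a and d held rises at low and falls at high paralog numbers, and no gene of groups 11 to 13 was tested in clusters b and c.

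**Figure D5:**
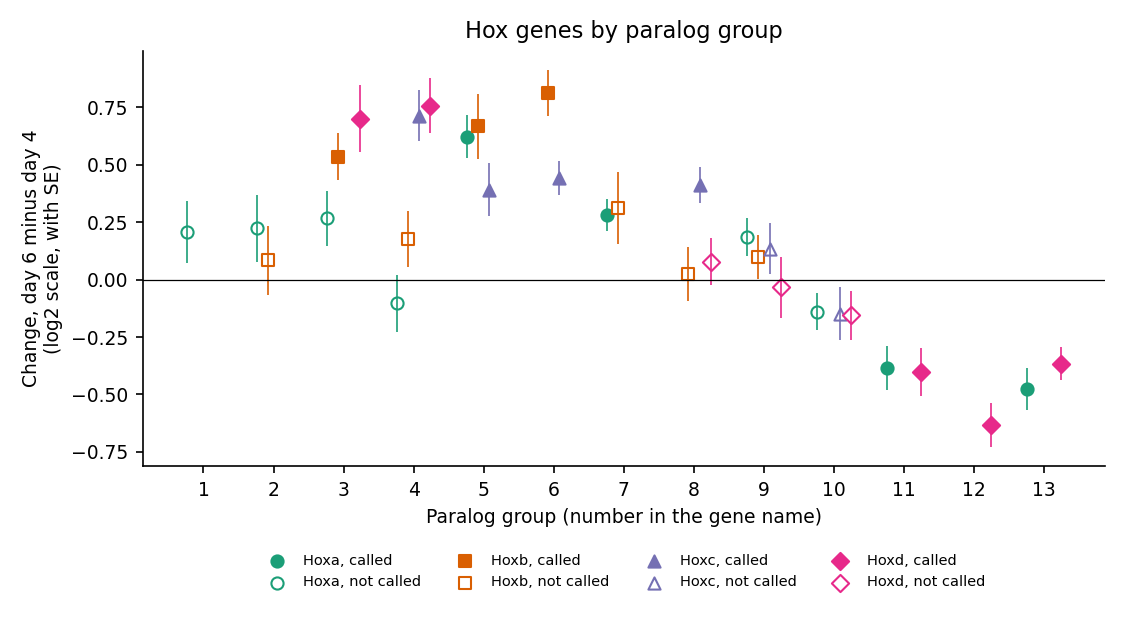
Change from day 4 to day 6 of 32 Hox genes (log2 scale, bars are SE) by paralog number, with colour and shape for the cluster and filled symbols for genes past the threshold. The called rises lie between paralog groups 3 and 8 and the called falls between 11 and 13.

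Markers of other cell types were examined in the same libraries. Of 6 tested endothelial markers 2 rose (1 without D4 replicate 1 or D6 replicate 1), a share of 33.3% beside 25.2% of all tested genes. Their sum went from 108.1 and 109.8 CPM in D4 to 165.5 and 153.6 CPM in D6, nearly all of it Tek, the angiopoietin receptor, from 102 and 101 to 156 and 145 CPM (change 0.56). Kdr stood at 1.3 and 1.96 CPM in D4 and 1.9 and 1.33 CPM in D6 and Cdh5 was below the filter. Neural markers were not low: their sum was 765.1 and 750 CPM in D4 and 708.9 and 748.1 CPM in D6. The most abundant was Stmn2, a neuronal microtubule regulator, at 319 and 283 CPM in D4 and 306 and 349.9 CPM in D6, and Tubb3, a neuronal tubulin, stood at 61.5 and 56.2 CPM in D4 and 59.1 and 62.9 CPM in D6, neither of them called. Of the 7 tested 1 rose and 2 fell: Sox1, a neural SOX factor, rose from 0.25 and 0.15 to 2.41 and 1.48 CPM (change 1.28), Nes, nestin, fell from 77.3 and 76.7 to 60.3 and 56 CPM (change -0.40), and Map2, a neuronal microtubule-associated protein, fell from 147 and 162 to 133 and 121 CPM (change -0.29). Of 12 markers of cartilage, bone and fat 5 were tested and 2 rose, Bglap, osteocalcin, from 7.14 and 5.13 to 12.5 and 13.5 CPM (change 0.99) and Sox9 from 9.24 and 10.3 to 14.8 and 14.1 CPM (change 0.52). Myod1, the factor of skeletal muscle, was at 0 in all libraries.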

How the data were processed

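The deposited table holds CPM values for 32108 genes and 8 libraries, made by the authors from gene counts although its name speaks of TPM: every column sums to a library total of 1000000 and within a library many low values lie on multiples of a common step, with no division by gene length. Other values are fractions of a read, such as 0.00249 CPM for Grhl2 in D2 replicate 2. The submitters' processing notes list Trimmomatic 0.39, featureCounts without a version, and mm10; the aligner, annotation release and strandedness were not given in the sources used here, nor was the treatment of reads matching several genes. RNA was extracted with TRIzol and sequenced on BGISEQ-500, per the labels' protocols. Between 54.4% and 55.7% of values above 0, with the highest values left out, came out as whole reads (tolerance 0.01 read), so no count test was run. Counted reads per library ranged from 19409954 to 20161108. Symbols and coordinates came from GENCODE M21 (mm10) for 32029 identifiers, and 79 had none. 0 columns belonged to no labelled library.

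Genes reaching 1 CPM in 2 or more of the 8 libraries were tested. The test was limma 3.58.1 (R 4.3.3) with an intensity trend, on log2(CPM + 1), with each day as a coefficient, all 8 libraries in the fit and 4 residual degrees of freedom left. Contrasts were D6 minus D4, the neighbouring steps and differences between steps. Benjamini-Hochberg adjustment covered the 15358 tested genes. Called means an adjusted p under 0.05. All adjusted p-values in the text come from this fit unless a left-out library or another scaling is named. Changes are differences of mean log2(CPM + 1), which understate the change of low genes, and folds are ratios of mean CPM. Promoter stretches were read from RefSeq (GRCm38.p6). The fit was tested on simulated data. Python 3.11.15 with pandas 2.3.3 and matplotlib 3.10.9 made tables and figures.

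The libraries compared and the gene lists were chosen with earlier results of these data known. The naming rule took the 15 largest rises and 15 largest falls among called genes whose libraries did not overlap, with at least 5 CPM on the higher day and without predicted models and pseudogenes. Each list gave its 5 called members of largest change at most, and 3 at most that were not called or moved against the rest, besides the factors and cell type markers. Other named members (among them Egr2, Egr3, Jun, Nr4a1, Tgfb1, Tgfb2, Tgfbr2, Yap1, Col1a2, Col5a1, Loxl3, Fn1, Mmp14, Prrx1, Zeb1, Itga5, Ocln, Dsp, C3, Hp, Serping1, Tapbp, Ifih1, Il34, Atf4, Adm, Kdm3a, Peg3 and Meg3) were chosen for their role after their values were seen. Some genes that the rule takes are not reported here. The alternatives were pseudocounts of 0.1 and 5, no filter on low values, a filter at 5 CPM in at least 2 libraries, median-of-ratios scaling, quantile normalization, a fit of D4 and D6 alone, a replicate block and leaving out each library.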

Additional observations from a re-analysis of the deposited data

How the results depend on the processing

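Over 17 alternative settings the number of called genes ranged from 3970 (without D6 replicate 1) to 6076, with 4227 without D4 replicate 2 and 4597 with no filter on low values. Genes lower in D6 numbered 1928 and came to 2873 with median-of-ratios scaling and 2942 with quantile normalization, where genes higher in D6 numbered 2725 and 2681. Of rises by at least 1 on the log2 scale there were 300, against 603 with a pseudocount of 0.1 and 93 with a pseudocount of 5, and of such falls 37, against 69 and 20. With 1 library left out, called genes numbered 3970 to 5763, genes higher 2622 to 3823, genes lower 1348 to 1940, rises by at least 1 log2 300 to 322 and such falls 35 to 48. Of 576 called genes in the lists or among the largest changes, 359 kept call and direction under every setting that tested them, and 1 reversed. That gene was mt-Nd1, at -0.25 on the deposited scale and 0.03 with quantile normalization (adjusted p = 0.76). mt-Nd4, not called on the deposited scale, was at 0.25 with quantile normalization (adjusted p = 0.016). Of the 576 calls, 139 were lost with no filter on low values, 125 without D6 replicate 1, 118 without D4 replicate 2 and 98 without D6 replicate 2. The cause was not tested. Of 1632 counts of list members, 1440 stayed within 1.5 times. Counts of 1 or 2 called members often changed when a library was left out.

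Replicate numbers did not pair the samples: deviations of same-numbered D4 and D6 libraries correlated at -0.102, and the correlations of the other pairs of days lay between 0.005 and 0.207 (D4 with D8). With a replicate block 6046 genes were called (4030 higher and 2016 lower), and with the D6 numbers crossed, a pairing chosen after seeing the data, 6076 were called. Depth limits statements on Nanog, Epcam, Krt18 and other genes near 3 reads.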

Other observations

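Several of the largest rises belong to no list above. Myoc, myocilin, a secreted protein of the eye's outflow tissue (chromosome 1, 162639155 to 162649693), rose from 44.6 and 41.3 to 253 and 260.3 CPM (change 2.55 ± 0.056 (SE), limma adjusted p = 1.5e-11) and stood at 1.22 and 1.2 CPM on day 2. Myocos, annotated on the opposite strand of the same locus, rose by 2.24, and since the strand of the counting is not given the reads of this pair cannot be told apart. Ucp2, a mitochondrial uncoupling protein, rose from 33.1 and 32.3 to 165 and 136 CPM (change 2.16). Grm4, a glutamate receptor, rose from 2.65 and 3.26 to 18.8 and 24.7 CPM (change 2.52). Among the largest falls, Masp1, a protease of the lectin pathway of complement, fell from 312 and 283 to 123 and 117 CPM (change -1.30), against the direction of most complement genes. Adgrg1, an adhesion receptor, fell from 13.1 and 15.1 to 4.77 and 3.84 CPM (change -1.51).

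Autophagy genes rose in part: of 10 tested 6 rose and 1 fell, with a median of 0.20, while of 19 lysosomal genes 2 rose and 3 fell. Of both together 8 rose and 4 fell, against 5 and 7 with median-of-ratios scaling and 5 rises without D4 replicate 2 or D6 replicate 1. The deposited shares of both together, 27.6% and 13.8%, lie near the 25.2% and 12.6% of all tested genes. Sqstm1, the cargo receptor p62, rose from 256 and 239 to 334 and 339 CPM (change 0.44, limma adjusted p = 3e-05), and Map1lc3b, the membrane marker LC3B, rose from 113 and 101 to 148 and 137 CPM (change 0.41). Ctsb, cathepsin B, fell from 830.5 and 846 to 613 and 659 CPM (change -0.40). Among heat shock genes 7 of 14 rose and 2 fell (50% and 14.3%, against 25.2% and 12.6% of all tested genes). Hspb1, a small heat shock protein, rose from 29.5 and 25.6 to 44.1 and 49.1 CPM (change 0.74), and Cryab, its relative, rose from 112 and 112 to 159.9 and 149.8 CPM (change 0.46). Hspa1a rose from 8.36 and 8.28 to 14.4 and 21.3 CPM (change 0.99), with reads that its near-identical copy Hspa1b may share. Of 35 respiratory chain genes of the nucleus 10 rose and 0 fell, and of all 48 22.9% rose, near the 25.2% of all tested genes. Among the 13 encoded by mitochondria 1 rose, mt-Co3, from 2548 and 2224 to 3476 and 3543 CPM (change 0.56), and 2 fell. Of the 48, 11 rose, against 5 with median-of-ratios scaling, 6 with no filter on low values or without D4 replicate 2, 7 without D6 replicate 2 and 17 without D4 replicate 1.

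By gene class, 54 of 133 tested long intergenic noncoding RNA genes rose and 7 fell (45.9% called), against 3444 and 1876 of 13530 protein-coding genes (39.3% called). Malat1, a nuclear noncoding RNA, read 769 and 1594 CPM in D4 and 601 and 497 CPM in D6, a gap within day 4 that was larger than the difference between days.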
